A study of Mus musculus with 12 samples.

Results

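A library of mouse embryonic fibroblasts given a lentivirus labelled Chimera was set against a library of the same cells given MyoD from a second batch of virus. These 2 of the 12 libraries of the series share a count table, and the second MyoD batch is described as balanced against the Chimera virus. Of 37287 gene IDs in that table, 13412 had 50 or more counts over both libraries and are described here. Both libraries came from cells of the genotype MyoD-/-; Myf5-/-, called M&M MEFs, as did the other 10 libraries. Cells were infected in DMEM medium with polybrene, which helps virus enter cells. After 24 h the medium was changed to differentiation medium, and cells were harvested after a further 20 h. Both viruses were used at the 1x dose. The promoter of the vectors and the makeup of the chimeric protein are not given in the sources used here, and nothing in the labels says that either library was repeated in another culture. RNA was selected with oligo-dT and sequenced. Chimera held 25.1 M counts (M, mega) and second-batch MyoD 23.7 M.

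The other libraries, in a table of their own, were used only to choose genes and to give a setting for the levels. They carried GFP virus at 1x or at a multiplicity of infection (MOI, virus per cell) of 15, 30, 60 or 120, MyoD at 1x or 2x, Myf5 at 1x or 2x, or no virus. The 2 tables were counted separately, and the 37 mitochondrially encoded genes have 0 counts in the first table, so levels set across tables are descriptions. How the 1x dose relates to the MOI is not given. The 2 libraries of a factor in the first table differ in labelled dose, and nothing says that they came from separate cultures. All groups of that table share 1 estimate of the spread, to which the GFP libraries at MOI of 15 to 120 contribute as if replicates. The 1x GFP and no-virus groups are single libraries and add nothing to it. So p-values from that table measure a spread that holds factor dose and GFP MOI and may otherwise be technical.

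MyoD and Myf5 are basic helix-loop-helix transcription factors that commit cells to skeletal muscle. Each pairs with an E protein and binds the E-box, a short DNA motif with the letters CANNTG. MyoD is known for turning fibroblasts into muscle cells when it is introduced into them, and myogenin (Myog) acts after both in terminal differentiation, when sarcomere, synapse and calcium-handling genes are switched on. Values below are counts per M counts of the library (CPM) and the CPM ratio of Chimera over second-batch MyoD. With 1 library on each side there is no replicate check and no test of this comparison. The 95% limits given beside a ratio are exact binomial (Clopper-Pearson) limits, which cover counting error only. A gene is called higher at a ratio of 2 or more and lower at 0.5 or less.

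The introduced factors set the libraries apart as their labels do for MyoD. Myod1 stood at 22.1 CPM in Chimera and 324 CPM in second-batch MyoD, a ratio of 0.0681 (0.0624 to 0.0742). The Chimera level of Myod1 lay above that of the first-table libraries without MyoD virus, such as 1x Myf5 with 5.36 CPM. Myf5 stood at 165 CPM in Chimera and 14.7 CPM in second-batch MyoD, a ratio of 11.2 (10.1 to 12.6), and at 149.5 CPM in 1x Myf5 of the first table. The first-table libraries without Myf5 virus held 11.9 to 24.4 CPM of Myf5, so the second-batch MyoD level lay within their range. Counts per gene do not say which part of either coding sequence the reads came from. Myog, the muscle factor downstream, stood at 300.3 CPM in Chimera and 705 CPM in second-batch MyoD, a ratio of 0.426 (0.415 to 0.438). Within the first table, Myog in 1x Myf5 was 2.19% of its level in 1x MyoD, and 3.85% at the 2x dose. The Chimera level of Myog was close to the 270 CPM of 1x MyoD in the first table, below the 763 CPM of 2x MyoD and above both Myf5 libraries (5.91 and 29.4 CPM), as the plot of levels by library shows.

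**Figure D1:**
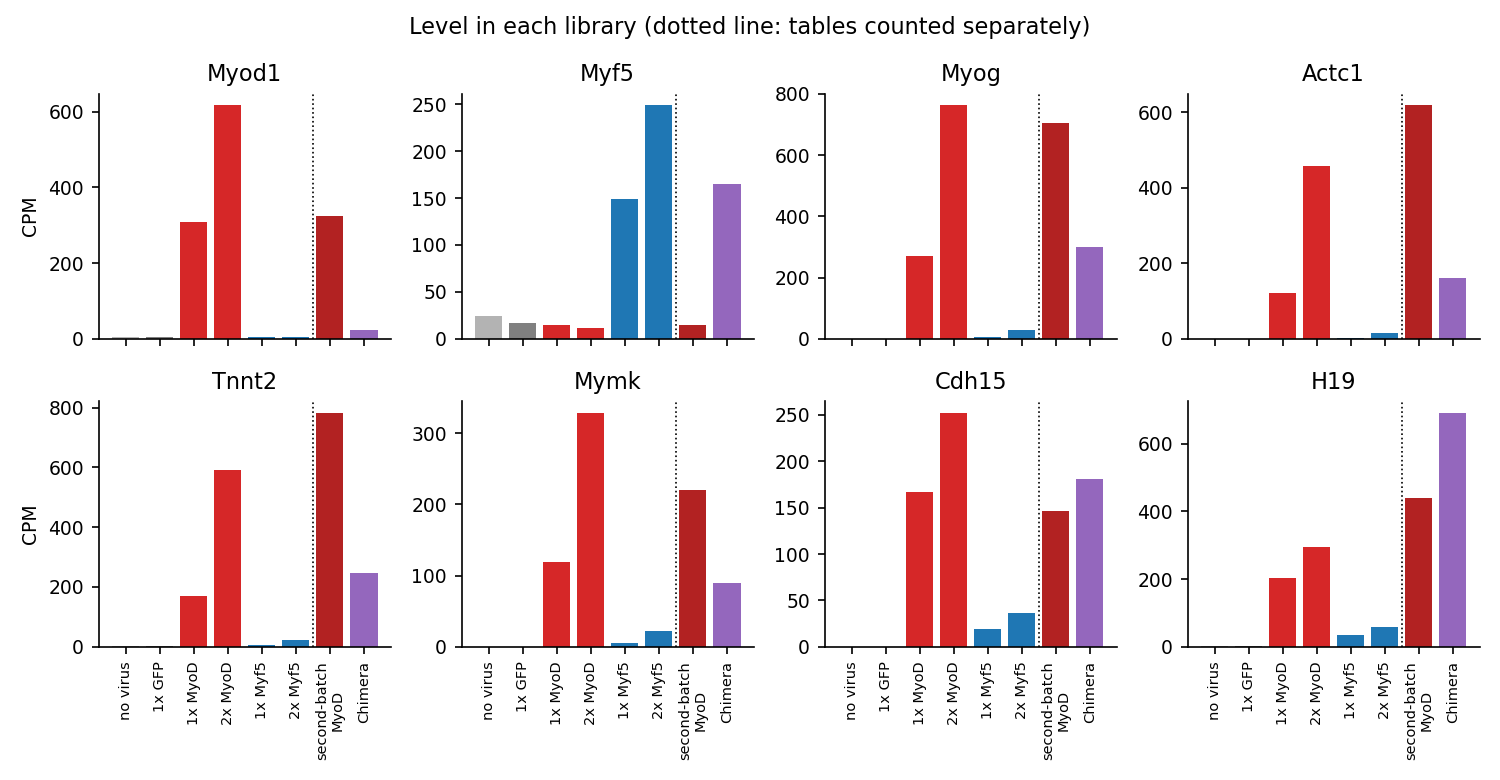
Levels of 8 genes, in CPM on a linear axis from 0, in 8 libraries (1 bar each, no error bars because each bar is 1 library); grey is no virus and 1x GFP, red MyoD, blue Myf5, dark red second-batch MyoD and purple Chimera. Chimera held 300.3 CPM of Myog against 705 CPM in second-batch MyoD, and 181 CPM of Cdh15 against 146 CPM.

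Over all 13412 genes, 359 were higher in Chimera (2.68%) and 311 were lower (2.32%). The remaining 12742 differed by less than 2-fold, and the median log2 ratio was -0.02, with quartiles at -0.24 and 0.20. A ratio of 4 or more was reached by 56 genes and one of 0.25 or less by 25. The counting interval lay wholly past 2-fold for 182 higher and 134 lower genes. A further 7542 genes had 1 to 49 counts and are not described. The median upper limit lay 1.67 times above the ratio for the 981 genes with 50 to 100 counts, and 1.08 times above it for the 7928 genes with 1000 or more.

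Single libraries of a like label also differ. Without mitochondrial genes, 4.97% of genes were past 2-fold between Chimera and second-batch MyoD, against 3.38% between 2x and 1x MyoD and 0.138% to 0.42% between neighbouring MOI of GFP. Second-batch MyoD and 1x MyoD differed past 2-fold in 9.81% of genes, which sets batch of virus and counting table apart at once. RNAs that mostly lack a poly(A) tail also differed between the 2 libraries. All 8 genes of the class that holds Rn7sk, a small nuclear RNA, were lower in Chimera (Rn7sk 19.01 and 65.5 CPM), and 11 of 19 histone genes of the Hist1 to Hist4 families were higher, with Hist1h1c at 41.3 and 15.7 CPM. Near-identical histone copies such as Hist1h2bq and Hist1h2br hold the same counts. Their part in the other results was not tested. Counted over protein-coding genes alone, 327 were higher and 270.0 were lower.

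**Figure D2:**
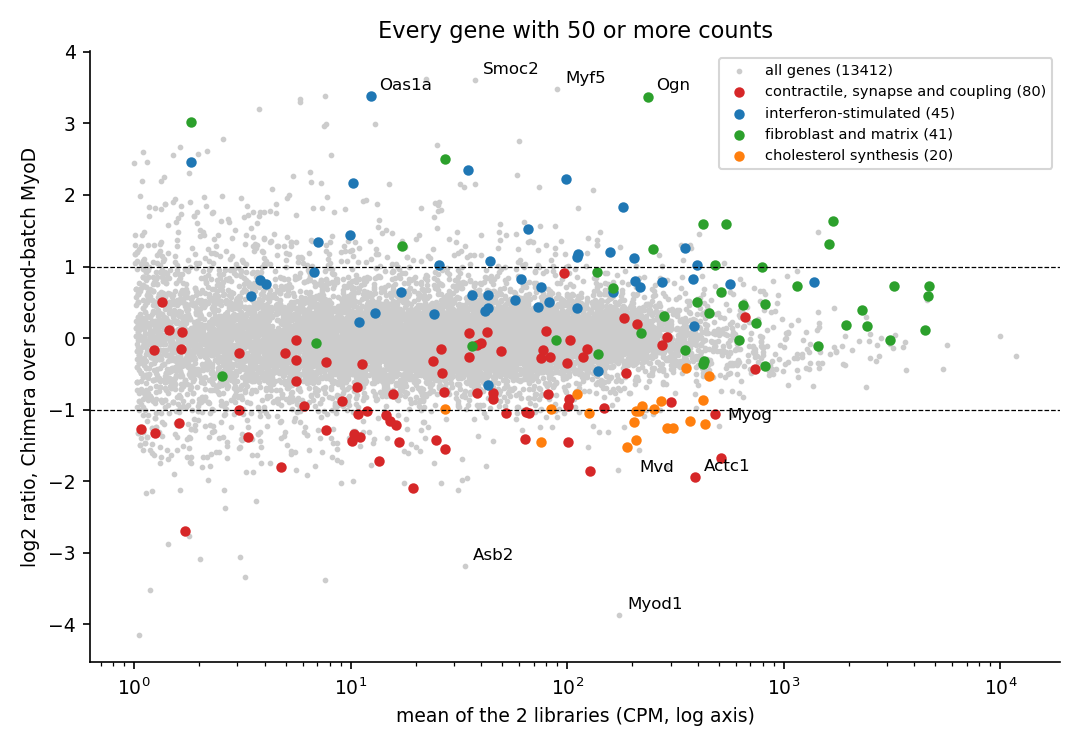
Log2 ratio of Chimera over second-batch MyoD against the mean of the 2 libraries in CPM (log axis), 1 point per gene for 13412 genes, with 4 gene lists in colour and dashed lines at 2-fold. Contractile, synapse and coupling genes and cholesterol genes lie mostly below 0, interferon-stimulated genes mostly above it, and Myod1 and Myf5 lie near the lower and upper edges.

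Genes of the contractile apparatus had less RNA in Chimera than in second-batch MyoD. Of 120 genes written for the sarcomere, the acetylcholine receptor and synapse, and excitation-contraction coupling, 80 had enough counts, and 30 of these were lower, 0 were higher and 69 had a ratio below 1. Their median level was 58.9% of that in second-batch MyoD, against a median of 98.7% over all genes. In the first table the same genes had a median of 36.9% in 1x Myf5 relative to 1x MyoD and 22.2% at the 2x dose. Over all genes, 2.32% were lower and 2.68% higher in Chimera, and these shares also stand beside the counts in the contractile lists below.

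Thin filament genes encode actin, tropomyosin and the troponins that make contraction depend on calcium. Of 20 such genes, 9 were lower and 0 were higher, with a median of 53.6%. Actc1, the actin of heart and embryonic skeletal muscle, stood at 160 CPM in Chimera and 618 CPM in second-batch MyoD, a ratio of 0.259 (0.251 to 0.269). Tnni1, slow troponin I, stood at 55.4 and 200 CPM (0.277, 0.261 to 0.294). Tnnt2, a troponin T used in embryonic muscle, stood at 245 and 782 CPM (0.314, 0.305 to 0.323). In the first table, Actc1 stood at 122 CPM with 1x MyoD and at 3.21 CPM with 1x Myf5, Tnni1 at 17.9 and 0.264 CPM, and Tnnt2 at 170 and 5.48 CPM, so Chimera lay above 1x MyoD as well as 1x Myf5 for these 3 genes. The summed thin filament level was 2171 CPM in Chimera and 3703 CPM in second-batch MyoD, beside 1925 (1x) and 3506 CPM (2x) for the MyoD libraries of the first table. Other thin filament genes were close to equal between the libraries: Acta1, the adult skeletal actin, had a ratio of 0.955 and Tpm1, a tropomyosin, of 1.22.

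Thick filament, titin and M-band genes carry myosin and the proteins that hold it in register. Of 20 genes, 10 were lower and 0 were higher, and the median was 51.4%. Their summed level was 425 CPM in Chimera and 806 CPM in second-batch MyoD, beside 376 (1x) and 1077 CPM (2x) with MyoD in the first table. There, 1x GFP held 147 CPM and the library without virus 149 CPM. Mylpf, the fast regulatory light chain, stood at 53.6 CPM in Chimera and 147 CPM in second-batch MyoD (0.364, 0.342 to 0.388), and Unc45b, a myosin chaperone, at 34.7 and 92.7 CPM (0.374, 0.346 to 0.405). Myh3, the embryonic myosin heavy chain, was not called, with 72.5 and 130.3 CPM (0.556, 0.525 to 0.590). Mylk4 had the largest MyoD over Myf5 difference of all genes with enough expression in the first table, and its ratio here was 0.774 (0.651 to 0.919).

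The Z-disc, synapse and coupling genes were less uniform. Of 11 Z-disc genes, which anchor thin filaments, 3 were lower: Cap2, an actin-binding protein, Des, which encodes desmin, and Ldb3, a scaffold. Desmin stood at 13.4 CPM in Chimera and 35.98 CPM in second-batch MyoD. Of 11 acetylcholine receptor and synapse genes, 3 were lower. They were Ky, a muscle protease-like gene with 0.399 and 3.04 CPM, and the receptor subunits Chrna1 (6.10 and 16.01 CPM) and Chrnd (42.4 and 86.8 CPM). The subunits Chrng and Chrnb1 had ratios of 0.510 and 0.586. Agrn, the nerve-derived organiser of receptor clusters, went the other way at 127 and 67.1 CPM, a ratio of 1.89. Of 18 coupling genes, 5 were lower. Jsrp1, a protein of the triad junction, had 7.29 CPM in Chimera and 31.4 CPM in second-batch MyoD (0.232, 0.197 to 0.274), Atp2a1, the calcium pump of fast fibres, had a ratio of 0.364, and Stac3, needed for the voltage sensor, 0.483. The calcium release channel Ryr1 had 59.8 and 103 CPM, a ratio of 0.581.

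**Figure D3:**
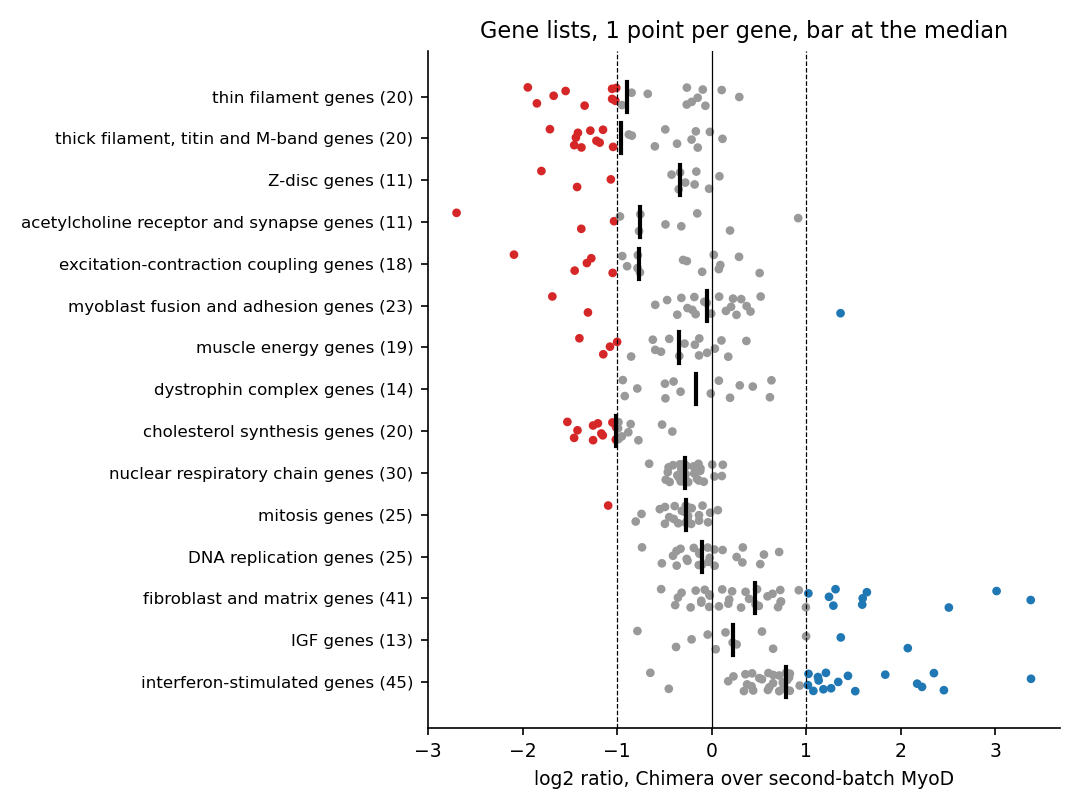
Log2 ratio of Chimera over second-batch MyoD for every gene with 50 or more counts in 15 lists, 1 point per gene (vertical position within a row only separates points), with a bar at each list's median, dashed lines at 2-fold, red for lower and blue for higher genes. Thin and thick filament and cholesterol lists have medians near -1, and interferon-stimulated genes have a median of 0.79.

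The 250 bases before the annotated start were read for 4 muscle genes and 2 interferon-stimulated genes, from RefSeq windows on GRCm38.p6 with coordinates of that build. The muscle genes are shown because they are among the genes with less RNA in Chimera and because E-boxes are the motif that MyoD and Myf5 bind. Capitals mark each E-box, CANNTG, searched on both strands, which are the same for a palindrome of this form. Chrna1 lies on the minus strand at chr2:73580339-73580588 and holds 3 E-boxes, of which 2 read CAGCTG (first bases at -92 and -44, counted back from the start) and 1 reads CAGGTG (at -73). Mylpf lies on the plus strand at chr7:127211358-127211607 and holds 1, CAGCTG, at -51. Myog lies on the plus strand at chr1:134289754-134290003 and holds CACATG at -138 and CAGTTG at -12. The window of Actc1, on the minus strand at chr2:114052876-114053125, holds 0.
Chrna1: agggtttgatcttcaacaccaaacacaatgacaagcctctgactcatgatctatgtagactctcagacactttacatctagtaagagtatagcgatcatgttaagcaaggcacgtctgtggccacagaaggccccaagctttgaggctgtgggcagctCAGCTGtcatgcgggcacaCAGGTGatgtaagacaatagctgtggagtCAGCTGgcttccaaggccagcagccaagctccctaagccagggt
Mylpf: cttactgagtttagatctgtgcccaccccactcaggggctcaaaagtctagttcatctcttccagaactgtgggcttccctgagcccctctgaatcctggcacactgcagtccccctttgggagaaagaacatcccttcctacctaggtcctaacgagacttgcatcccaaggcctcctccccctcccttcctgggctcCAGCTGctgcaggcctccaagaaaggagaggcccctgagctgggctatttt
Myog: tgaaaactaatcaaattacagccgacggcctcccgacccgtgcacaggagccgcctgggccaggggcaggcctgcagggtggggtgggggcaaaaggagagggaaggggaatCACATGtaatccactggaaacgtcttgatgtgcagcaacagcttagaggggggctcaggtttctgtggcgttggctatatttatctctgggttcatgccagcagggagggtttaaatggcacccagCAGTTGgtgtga
Actc1: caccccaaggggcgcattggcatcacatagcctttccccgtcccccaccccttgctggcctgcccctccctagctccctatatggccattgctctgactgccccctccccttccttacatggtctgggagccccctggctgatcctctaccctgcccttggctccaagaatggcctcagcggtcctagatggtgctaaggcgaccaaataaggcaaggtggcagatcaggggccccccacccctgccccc

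Over all windows of expressed genes, the letters of the motif were frequent. Of 12522 windows of this length, belonging to 9776 of the 12876 genes with a symbol, 57.1% held at least 1 CANNTG and 12.2% held CAGCTG. Among 281 windows of the genes lower in Chimera, the shares were 70.1% and 23.1%, and among 286 windows of the genes higher in Chimera they were 64.3% and 11.9%. A match is a run of letters and not a measured binding site.

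Most genes of myoblast fusion and adhesion were not called, as over all genes, where 2.68% were higher and 2.32% lower. Over the 23 genes, 2 were lower, 1 was higher and the median was 96.3%. Mymk (myomaker), a membrane protein that starts fusion, stood at 89.1 CPM in Chimera and 221 CPM in second-batch MyoD, a ratio of 0.403 (0.384 to 0.424). Mymx (myomixer), its small partner, stood at 15.4 and 49.8 CPM (0.310, 0.275 to 0.348). Cdon, a receptor that promotes myogenic differentiation, was higher with 96.8 and 37.6 CPM (2.58, 2.38 to 2.78), and Cdh15, which encodes M-cadherin, had a ratio of 1.24 (1.19 to 1.30). Other adhesion genes lay on either side of equality, with ratios of 0.660 for Igsf8, 0.776 for Jam3, 0.837 for Jam2, 1.33 for Cdh2 and 1.43 for Vcam1. Ncam1, a neural cell adhesion molecule, stood at 139.5 and 174 CPM. The membrane and signalling genes Myof, Adam12 and Dock1, which act in fusion, had ratios of 1.06, 1.15 and 1.17.

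Of 21 myogenic factors and cofactors, Myod1, Rbm24 and Myog were lower, Myf5 was higher and the others were not called. Rbm24, an RNA-binding protein of muscle splicing, stood at 13.2 and 52.5 CPM (0.252, 0.222 to 0.284). The cofactors Mef2a, Six4 and Tcf3 had ratios of 0.888, 0.930 and 0.933, and Mef2d one of 0.640. Closer to 2-fold were Smyd1, a muscle methyltransferase (0.523), Vgll3, a TEAD cofactor (1.92), and the transcriptional cofactors Eya4 (1.94) and Eya1 (1.46). Among genes of the muscle surface, 0 of 14 dystrophin complex genes were called. With 2.68% higher and 2.32% lower over all genes, this count does not set the complex apart. Of 19 muscle energy genes, 4 were lower, among them Ckm, the muscle creatine kinase, with 12.1 and 32.0 CPM, and Hfe2, which encodes the iron regulator hemojuvelin, with 9.13 and 19.3 CPM.

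To describe Chimera with genes not chosen on these 2 libraries, those that differed between MyoD and Myf5 in the first table were taken (edgeR quasi-likelihood test, Benjamini-Hochberg adjusted p under 0.05 and at least 2-fold). There were 358 genes higher with MyoD (2.59% of 13825) and 171 lower with MyoD, that is higher with Myf5 (1.24%). Of the first, 347 had enough counts here, and 108 of them (31.1%) were lower in Chimera, 6 were higher and 289 (83.3%) had a ratio below 1. The shared 108 genes make up 34.7% of all genes lower in Chimera, and over all 13412 genes 2.32% were lower. The median of the 347 genes was 63.0% of second-batch MyoD, beside 36.9% for 1x Myf5 against 1x MyoD and 24.3% for the 2x pair. Per gene, the Chimera ratio exceeded the 1x Myf5 ratio in 311 of the 347 and the 2x ratio in 342. The genes were chosen for a large difference in those same Myf5 and MyoD libraries, and not on Chimera. That choice alone favours this order, so these counts cannot place Chimera between the factors. The 358 genes became 119 without 1x Myf5, 141 without 2x MyoD and 456 without 1x MyoD, and of those with enough counts 30 of 119, 48 of 140 and 89 of 446 were lower in Chimera.

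Of the genes higher with Myf5 than with MyoD, 148 had enough counts, and 52 of them (35.1%) were higher in Chimera, 0 were lower and 138 had a ratio above 1. Those 52 make up 14.5% of all genes higher in Chimera, and over all 13412 genes 2.68% were higher. This set also rests on single libraries: the 171 genes became 23 without 2x MyoD, 31 without 2x Myf5, 100 or 93 without GFP at MOI 30 or 60, and 413 without 1x MyoD. Of those with enough counts, 5 of 12, 8 of 26, 26 of 87, 26 of 80 and 76 of 332 were higher in Chimera, and 10, 17, 78, 73 and 258 had a ratio above 1. Without 1x MyoD, 11 were lower. The 148 genes had a median of 169% of second-batch MyoD, beside 195% for 1x Myf5 against 1x MyoD and 415% at 2x. These genes too were chosen on the first-table libraries, which moves the medians of those libraries away from equality. Of the 148 genes, 34 are in the interferon list described below (14 higher in Chimera, median 175%), and the other 114 had 38 higher and a median of 163%. That list does not hold every gene that responds to interferon. Sp100, a nuclear body protein known to respond to it, is among the 114. How many more of the 114 respond was not tested, so 163% cannot be read as a value without interferon genes. Without a minimum fold, 1474 genes were higher with MyoD than with Myf5 (10.7%) and 1208 were lower (8.74%). Of the 283 genes lower in Chimera that the first table could test, 119 (42.0%) were among the first group and 4 among the second. Of the 337 genes higher in Chimera, 104 (30.9%) were among the second and 9 among the first. These any-fold calls moved likewise: the 1474 became 184 without 1x Myf5, 480 without 2x MyoD, 492 without 2x Myf5, 868 or 846 without GFP at MOI 30 or 60, and 2614 without 1x MyoD. The median log2 ratio of the genes higher with MyoD at 2-fold lay between -0.70 and -0.52 over the 8 omissions. Across 13128 genes, the log2 ratio of Chimera over second-batch MyoD and that of 1x Myf5 over 1x MyoD had a Pearson r of 0.37 and a Spearman rho of 0.33, and with the 2x pair 0.44 and 0.38. The paired ratios share no library, but genes are not independent replicates.

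**Figure D4:**
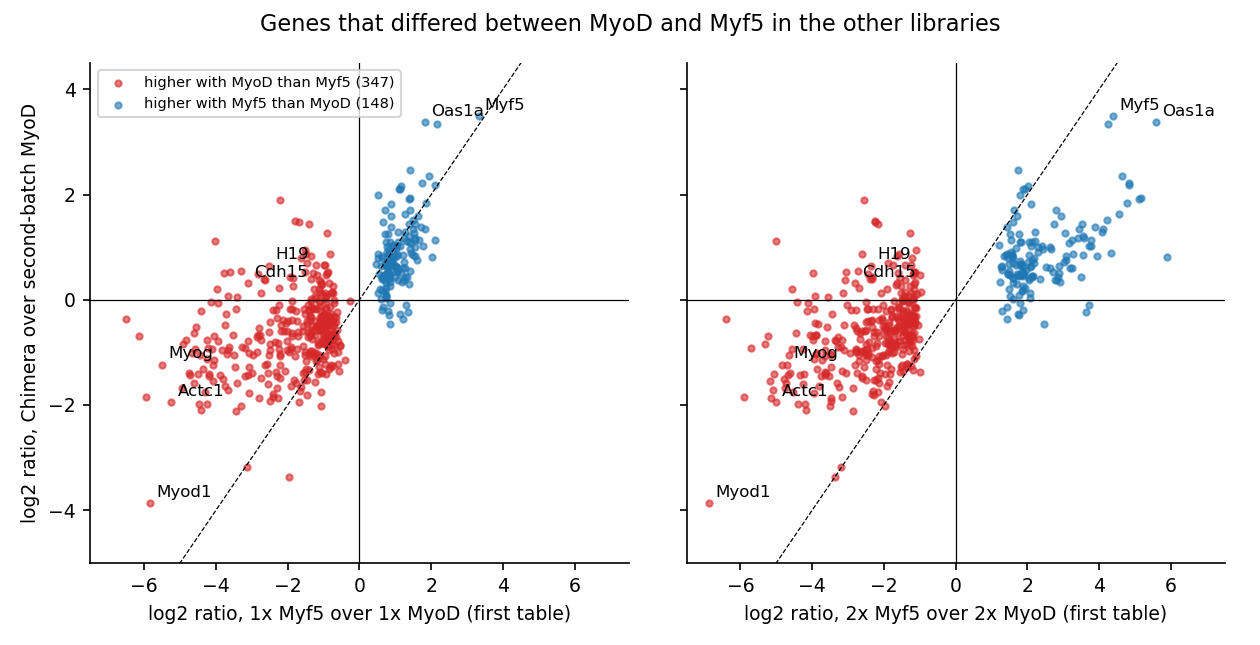
Log2 ratio of Chimera over second-batch MyoD (vertical) against the log2 ratio of Myf5 over MyoD at 1x (left) and 2x (right) in the first table, for 347 genes higher with MyoD than with Myf5 (red) and 148 higher with Myf5 (blue); the dashed line marks equal ratios. Most red points lie above the dashed line, 311 at 1x and 342 at 2x, and most lie below 0 on the vertical axis. The genes were chosen on the libraries of the horizontal axes, which by itself favours red points above the line.

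The 347 genes were spread widely. In Chimera, 8 were at 25% or less of second-batch MyoD, 100 between 25% and 50%, 138 between 50% and 80%, 67 between 80% and 125% and 34 at 125% or more. The counting interval lay below 1 for 252 and above 1 for 38. The genes named next were chosen after their values were seen, as the most abundant of the set or as those whose interval lay above 1. Low in Chimera were Nes, which encodes the intermediate filament nestin, with 127.9 and 445 CPM (ratio 0.288), and Gpc1, a cell-surface heparan sulfate proteoglycan, with 108 and 321 CPM (0.337). At intermediate levels were Olfml2b with 468.5 and 825 CPM (0.568), the tetraspanin Cd82 with 504.5 and 655.5 CPM (0.770) and the retinoblastoma gene Rb1 with 169.9 and 254 CPM (0.668).

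At or above the second-batch MyoD level were several genes whose level with Myf5 was well below that with MyoD in the first table. H19, an imprinted noncoding RNA of embryonic muscle, stood at 690.5 CPM in Chimera and 440.3 CPM in second-batch MyoD (1.57, 1.53 to 1.61), although 1x Myf5 held 17.5% of 1x MyoD. Igfbp5, an IGF-binding protein of differentiating myoblasts, stood at 5408 and 3741 CPM (1.45, 1.43 to 1.46), with 34.7% in 1x Myf5. Cdh15 had 11.5% in 1x Myf5 and Mycl, a Myc family member, 27.7%, with a Chimera ratio of 1.20 for Mycl. Dag1, which encodes dystroglycan, had 530 and 503 CPM (1.05). Plagl1, an imprinted zinc finger factor, was higher at 249 and 103 CPM (2.41, 2.30 to 2.53). C1qtnf3, a secreted protein, was higher at 40.3 and 10.7 CPM (3.75, 3.27 to 4.32).

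Genes that MyoD changed against 1x GFP, a single library, were taken in the same way. MyoD raised 677 genes (4.9% of 13825, the same edgeR test with adjusted p under 0.05 and 2-fold) and lowered 397 (2.87%). Of the raised genes, 650 had enough counts here, 115 were lower in Chimera (17.7%) and 22 higher (3.38%), with a median of 77.5%. Of the lowered genes, 311 had enough counts, 47 were higher in Chimera (15.1%) and 21 lower (6.75%), with a median of 111%. Over all genes 2.68% were higher and 2.32% lower, so both directions lay above these shares in each set. Without 2x MyoD the 677 and 397 became 425 and 172, and without 1x MyoD the 397 became 800.

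Several extracellular matrix genes were higher in Chimera. Of 41 fibroblast and matrix genes, 10 were higher and 0 lower, beside 2.68% and 2.32% over all genes, and the median was 138%. Ogn, a small leucine-rich proteoglycan, stood at 430.5 CPM in Chimera and 41.4 CPM in second-batch MyoD, a ratio of 10.4 (9.73 to 11.1). Its relatives Kera (46.3 and 8.07 CPM), Aspn (2561 and 821 CPM) and Lum (24.4 and 9.97 CPM) were higher as well. Lox, the enzyme that cross-links collagen and elastin, stood at 809 and 268 CPM (3.02, 2.93 to 3.10). Col12a1, a collagen that sits on fibril surfaces, had a ratio of 3.03, the matricellular gene Postn 2.48 and the growth factor receptor Pdgfra 2.03. Fbn2, a microfibril protein, had a ratio of 9.79 from 3.31 and 0.338 CPM, with a wide interval of 4.75 to 23.4. The main fibrillar collagens were not called, with ratios of 1.32 for Col1a1, 1.51 for Col1a2 and 1.66 for Col3a1. The list summed to 49792 CPM in Chimera and 35700 CPM in second-batch MyoD, and in the first table to 45031 CPM with 1x GFP and to 33449 (1x) and 25673 CPM (2x) with MyoD.

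Of the 34 lists, interferon-stimulated genes had the most higher members by count, and theirs was also the longest list. Of 45 genes, 17 were higher, 0 were lower and 43 had a ratio above 1, and the median was 173%. Over all genes, 2.68% were higher and 2.32% lower. Oas1a, which makes the second messenger of an antiviral RNA-decay pathway, stood at 22.7 CPM in Chimera and 2.11 CPM in second-batch MyoD, a ratio of 10.8 (8.05 to 14.7). Its near-identical neighbour Oas1g had a ratio of 11.1, and reads that fit both copies may be divided between them. Oas2 stood at 58.3 and 11.4 CPM (5.13, 4.502 to 5.865), Ifi44 at 163 and 34.7 CPM (4.68, 4.34 to 5.05) and Isg15, a ubiquitin-like modifier, at 97.4 and 34.0 CPM (2.87, 2.65 to 3.11). Irf9, a transducer of the interferon signal, was not called, with 199 and 126 CPM (1.57). Ifit2 and Ifi27 were the exceptions, with ratios of 0.730 and 0.637.

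The level of the interferon list also differed among libraries that carry no muscle factor. Its summed level was 8011 CPM in Chimera and 4549 CPM in second-batch MyoD. In the first table it was 1352 CPM without virus and 1734 CPM in 1x GFP. With MyoD it was 2019 (1x) and 2010 CPM (2x), and with Myf5 3444 (1x) and 8325 CPM (2x). It reached 5689, 7828, 8419 and 12442 CPM at GFP MOI of 15, 30, 60 and 120. The part of virus amount or preparation in the Chimera value was not tested.

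**Figure D5:**
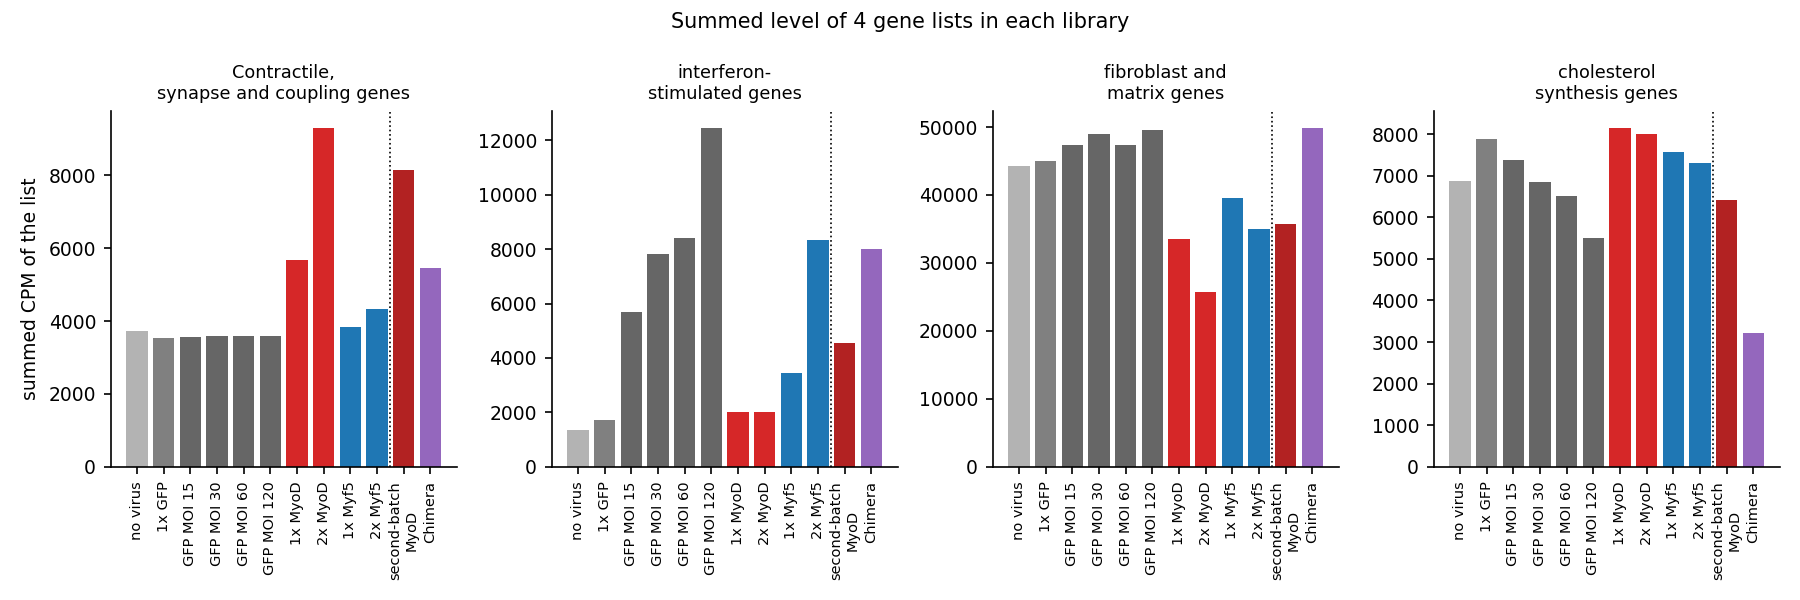
Summed CPM of 4 gene lists in each of the 12 libraries (1 bar per library, linear axes from 0, dotted line between the tables, colours as for the 8 genes above with GFP in grey). Chimera held 8011 CPM of interferon-stimulated genes against 4549 CPM in second-batch MyoD, and 3223 CPM of cholesterol genes against 6416 CPM.

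The windows before Oas1a (minus strand, chr5:120907526-120907775) and Isg15 (minus strand, chr4:156200819-156201068) are shown because they carry the letters of the interferon response element. Capitals mark GAAA, any 2 bases and GAAA again, searched on both strands, with overlapping matches joined. Oas1a holds GAAATGGAAA at -20 and GAAACTGAAA at -14, and Isg15 holds 3 overlapping matches that begin at -78, -72 and -66.
Oas1a: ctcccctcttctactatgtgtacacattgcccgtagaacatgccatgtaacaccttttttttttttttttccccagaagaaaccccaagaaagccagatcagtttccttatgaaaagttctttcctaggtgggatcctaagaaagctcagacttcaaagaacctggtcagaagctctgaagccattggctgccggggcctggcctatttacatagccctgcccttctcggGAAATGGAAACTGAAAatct
Isg15: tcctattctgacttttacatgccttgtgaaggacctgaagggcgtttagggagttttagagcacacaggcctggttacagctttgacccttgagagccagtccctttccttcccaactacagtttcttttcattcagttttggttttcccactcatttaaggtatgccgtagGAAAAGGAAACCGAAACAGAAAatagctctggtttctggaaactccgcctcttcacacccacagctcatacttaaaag

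Of the 39 windows of 33 interferon-stimulated genes that matched, 43.6% held this motif, beside 2.68% of all 12522 windows. The share was 10.1% among windows of genes higher in Chimera and 1.42% among those of genes lower.

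Cholesterol synthesis genes all had less RNA in Chimera. These genes are controlled together by the transcription factor SREBP2, which raises them when membranes lack cholesterol. Of 20 genes, 11 were lower, 0 were higher and all 20 had a ratio below 1, with a median of 49.5%. The shares over all genes were 2.32% lower and 2.68% higher. Mvd, an enzyme of the mevalonate pathway, stood at 97.2 CPM in Chimera and 280.3 CPM in second-batch MyoD, a ratio of 0.347 (0.331 to 0.363). Lss, which closes the sterol rings, stood at 113 and 302 CPM (0.373, 0.357 to 0.390), and Dhcr7, of the last steps, at 40.3 and 110.7 CPM (0.364, 0.338 to 0.392). In the first table the list's median was 93.1% in 1x Myf5 relative to 1x MyoD and 91.1% at 2x. Its summed level was 3223 CPM in Chimera and 6416 CPM in second-batch MyoD, and between 5498 and 8140 CPM in the other 10 libraries, so that Chimera lay below every other library. Along the GFP series at MOI of 15, 30, 60 and 120, where the interferon list was higher at each step, it was 7379, 6841, 6507 and 5498 CPM. The part of virus amount in the cholesterol values was not tested either.

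Mitosis genes and nuclear respiratory genes lay mostly just below equality. Of 25 mitosis genes, 24 had a ratio below 1 and 1, Ube2c, which marks mitotic proteins for destruction, was lower at 26.9 and 57.6 CPM. The list's median was 82.6%. Of 25 DNA replication genes 0 were called, and their median was 93.3%. With 2.68% higher and 2.32% lower over all genes, 0 calls do not set a list of this size apart. Of 30 nuclear genes of the respiratory chain, 0 were called but 26 had a ratio below 1, with a median of 82.4%, while 15 mitochondrially encoded genes had a median of 97.6%. The cell-cycle inhibitor Cdkn1c, which is imprinted and acts in muscle differentiation, was lower at 10.3 and 42.0 CPM (0.246, 0.214 to 0.282). Cdkn1a, the p21 gene, had a ratio of 0.902.

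Several signalling lists held called genes, beside 2.68% higher and 2.32% lower over all genes. Of 13 IGF genes, 3 were higher: Igfbp7 at 212 and 50.3 CPM (4.22, 3.96 to 4.49), Igfbp4 at 9.49 and 3.63 CPM, and Igf1, the growth factor itself, at 43.4 and 21.7 CPM (2.00, 1.801 to 2.23). Among 18 TGF-beta and BMP genes, the BMP antagonist Grem1 was higher (209.5 and 74.7 CPM) and another, Chrd, was lower (17.9 and 35.9 CPM), at a ratio of 0.498 that is not called under DESeq2 size factors. Of 25 immediate early genes, 0 were higher and Egr2, Egr3 and Fosl1 were lower. The ratio of Fosl1, 0.497, is likewise not called under DESeq2 size factors. Tead4, a DNA-binding partner of YAP, was lower at 6.94 and 28.4 CPM (0.244, 0.206 to 0.289), while Tead1, Tead2 and Tead3 had ratios of 0.944, 1.22 and 1.02.

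The genes furthest apart outside these lists had varied functions. Smoc2, a matricellular calcium-binding protein, stood at 69.4 CPM in Chimera and 5.62 CPM in second-batch MyoD, a ratio of 12.4 (10.4 to 14.9), and at 6.18 to 26.6 CPM in the first table. Ldb2, a LIM-domain cofactor, stood at 41.1 and 3.25 CPM (12.6, 10.0 to 16.2). Rspo2, a Wnt agonist, stood at 23.2 and 2.83 CPM (8.19, 6.35 to 10.7), and its relative Rspo4 went the other way, with 1 count in Chimera and 49 in second-batch MyoD (0.0193, 0.000478 to 0.113). Agt, which encodes angiotensinogen, stood at 13.7 and 1.65 CPM, and Sp100, a nuclear body protein known to respond to interferon, at 10.6 and 0.971 CPM. Arhgap20, a GTPase-activating protein, had a ratio of 10.5 and Clca3a1, a chloride channel regulator, 10.2. Gm43302 and 3830403N18Rik had ratios of 6.79 and 8.13.

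Among the lowest genes, several had few counts. Asb2, a ubiquitin ligase subunit that acts in myogenic differentiation, stood at 6.62 CPM in Chimera and 60.8 CPM in second-batch MyoD, a ratio of 0.109 (0.0921 to 0.128), and in the first-batch MyoD libraries it was at 14.8 CPM (1x) and 40.9 CPM (2x). Its Chimera ratio was close to the 11.1% of 1x Myf5 against 1x MyoD. Nespas, an antisense RNA of the imprinted Gnas region, stood at 1.28 and 13.98 CPM, and since the strand used in counting is not given its reads cannot be told from those of the gene it overlaps. Lrp8, a receptor for reelin and apolipoprotein E, stood at 11.6 and 50.8 CPM (0.228, 0.200 to 0.259), below the range of 37.1 to 70.2 CPM in the first table. Shisal1, Kcnc1, Slc6a13, Arhgap22 and Gm15512 had ratios of 0.0864 to 0.126, each from fewer than 16 counts in Chimera.

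Many markers of other cell types were at or near 0, while some, broadly expressed ones among them, were clearly detected. Over all genes 2.68% were higher and 2.32% lower, so 0 calls among a few genes do not set a list apart. Of 11 epithelial genes 0 reached 50 counts, with summed levels of 0.718 CPM in Chimera and 1.90 CPM in second-batch MyoD. Of 12 macrophage genes, 3 reached 50 counts and 0 were called, while Adgre1, Ptprc, Spi1 and Tyrobp had 0 counts in both. Of 10 endothelial genes, Eng (71.7 and 25.5 CPM) and Tek (1.91 and 0.845 CPM) were higher and Flt1 (0.518 and 1.60 CPM) was lower. The list summed to 79.7 and 32.1 CPM, most of it Eng, which fibroblasts also express. Vwf was detected in both and not called, with 4.78 and 3.42 CPM (1.40, 1.05 to 1.88). Emcn had 0 counts in both, and Cdh5 and Kdr had 5 or fewer in each library. Of 15 chondrocyte and osteoblast genes, Col11a1 (114 and 46.0 CPM) and Sox5 (10.9 and 4.39 CPM) were higher, while Acan had 0 and 1 counts. Spp1 (83.5 and 98.2 CPM), Sox9 (50.7 and 61.0 CPM) and Runx2 (42.5 and 38.0 CPM) were abundant in both and not called. Of 12 adipocyte genes, 3 reached 50 counts and 0 were called. Lpl, which encodes lipoprotein lipase, stood at 143 and 78.5 CPM (1.82, 1.72 to 1.92), and Adipoq, Cfd, Cidec, Lep and Plin1 had 0 counts in both. Of 15 neuron and glia genes, 6 reached 50 counts and 0 were called, with Tubb3 at 20.1 and 17.8 CPM and Rbfox3 at 0 in both. Of 13 cardiac genes, 3 reached 50 counts and Tnni3, cardiac troponin I, was lower at 1.99 and 4.10 CPM, while Hand1 and Nkx2-5 had 0 counts in both. Fibroblast genes were abundant in both, such as Col1a2 at 5564 and 3696 CPM and Vim at 3063 and 3121 CPM.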

How the data were processed

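Poly(A) RNA of 12 libraries was read from 2 gene tables. Per the submitters' processing notes, reads were processed with CASAVA 1.8.2 and TopHat2 2.0.8 on mm9. The counting tool, strand setting and annotation were not given in the sources used here. Whole-number counts, as deposited, fill the table of Chimera and second-batch MyoD, and the other table holds expected counts as deposited by the authors, which were rounded. Symbols came from the GENCODE vM21 names (32610 of 37287 IDs matched, with 1.45% and 1.39% of counts in unmatched IDs), and promoter windows from RefSeq. The comparison used CPM over all counts, genes with at least 50 counts, a prior count of 2 for log2 ratios and exact 95% binomial intervals (scipy 1.17.1), checked on simulated data.

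The first table, 17.9 to 81.5 M counts per library, was fitted in edgeR 4.0.16 (R 4.3.3; TMM, a CPM minimum of 1 reached in 2 or more libraries, all groups; two-sided quasi-likelihood test; threshold of 0.05 on p adjusted by Benjamini-Hochberg); DESeq2 1.42.0 was an alternative. Alternatives covered scaling, count minimum, call rule, gene class, dose as a block and each replicate left out; the restriction by gene class and all alternatives for the median ratios of genes called in the first table were chosen after seeing the data. The genes named are Myod1, Myf5, Myog, the 15 highest and 15 lowest by the limit nearest 1, the 3 highest and 3 lowest called members of each of 34 lists, and the 10 largest MyoD over Myf5 and Myf5 over MyoD differences; other list members were chosen after their values were seen. A few genes meeting this rule are not reported here. The comparison and lists were chosen with earlier results of these data known.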

Additional observations from a re-analysis of the deposited data

Results flagged for a closer look

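Among the 4 GFP libraries at MOI of 15, 30, 60 and 120, the summed level of Notch and Id genes at MOI 60 stood apart from the other three, at 269 CPM against 252.5 to 255 CPM. Among replicates of 1 condition, a single value so far from the rest is met by chance in about 1 in 20 groups of this size. The 4 libraries differ in MOI and are not replicates, so that rate does not hold for them. The rule was also applied to all 34 lists, so a flag in 1 of them can arise by chance and nothing is drawn from it. In Chimera the list summed to 443 CPM and in second-batch MyoD to 479 CPM.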

How the results depend on the processing

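Scaling by TMM, DESeq2 size factors or totals without mitochondrial genes left both counts of called genes within 1.5 times. The count of higher genes (359) was 541 with at least 20 counts, 212 with at least 200, 2780 with at least 1, 981 at 1.5-fold and 182 where the interval lay past 2-fold. That of lower genes (311) was 469, 160, 2305, 953 and 134. With at least 20 counts, median log2 ratios became -0.30 for excitation-contraction coupling and -0.23 for muscle progenitor genes, and that of chondrocyte and osteoblast genes turned to -0.038. There, 1 coupling gene was higher, 2 TGF-beta and BMP genes were lower (0 under DESeq2 size factors), and 1 Hox, 1 adipocyte, 1 chondrocyte and osteoblast and 1 neuron and glia gene were lower. The median of mitochondrially encoded genes was -0.0057 under DESeq2 size factors and -0.073 over protein-coding genes. The other 480 recomputed values stayed within 1.5 times for counts, or within the members' median counting limit for medians, and the 285 scaled ratios of named genes stayed within their counting intervals.

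No paired analysis was possible because Chimera and second-batch MyoD are 1 library each and carry no shared replicate number. In the first table, dose as a replicate block gave 2327 genes higher and 2331 lower with MyoD than with Myf5, in place of 1474 and 1208. Leaving out each replicate in turn gave 184 to 2614 and 165 to 2652, lowest without a Myf5 library and highest without 1x MyoD, and against 1x GFP 1383 to 3010 and 1236 to 3093, lowest without 2x MyoD and highest without 1x MyoD. The median log2 ratio in Chimera ranged from 0.48 to 0.82 for the genes higher with Myf5. The causes were not tested. Rare transcripts are limited by depth, and no count covers variation between cultures.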
